A study of Mus musculus with 24 samples.

Results

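H3K27me3, the trimethylated form of lysine 27 on histone H3, was profiled by chromatin immunoprecipitation and sequencing (ChIP-seq) in N1E115 cells, a mouse neuroblastoma line described in the labels as NOS1+, that is, positive for neuronal nitric oxide synthase. The cells were kept for 3 days at 20% oxygen, called normoxia in the labels, or at 4% oxygen, called hypoxia there, with no other agent named. The H3K27me3 libraries at these oxygen levels were taken from the sample titles, and they number 4 of the 24 samples of the series, with replicates 1 and 2 at each level. Every library came from this 1 cell line, and nothing in the labels says that replicates were separate cultures, so p-values measure only the spread between libraries, which may be technical. The comparison asked where this mark lies at each oxygen level, how wide its domains are and how many reads they hold.

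H3K27me3 is written by Polycomb repressive complex 2, whose catalytic subunit is EZH2 or EZH1, and is removed by the demethylases KDM6A and KDM6B, enzymes that use oxygen. It forms broad domains, called islands here after the SICER program that found them, over silent developmental regulators and over genes of other cell lineages. Active promoters carry H3K4me3 and H3K27ac instead, and transcribed gene bodies carry H3K36me3.

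Sequences at gene starts where the mark was found at 1 oxygen level, or at both, show how different these promoters are in CpG content, and are printed here for that reason. Each is the 250 bases before an annotated start (RefSeq, GRCm38.p6), with every CpG in capitals. In the 2000 bp centred on the start, Vip and Barx1 had the mark only at 4% oxygen, Runx1 and Wnt11 only at 20%, and Hoxd10 in all 4 libraries. The mark did not always reach the printed bases. In the 20% library of replicate 1, the island before the Runx1 start ended at -0.327 kb. Islands also stopped short of the printed bases at Wnt11 in that library (689 bp of the 2000 bp) and at Barx1 in both 4% libraries (365 bp).
Vip, chr10:5638968-5639217, plus strand: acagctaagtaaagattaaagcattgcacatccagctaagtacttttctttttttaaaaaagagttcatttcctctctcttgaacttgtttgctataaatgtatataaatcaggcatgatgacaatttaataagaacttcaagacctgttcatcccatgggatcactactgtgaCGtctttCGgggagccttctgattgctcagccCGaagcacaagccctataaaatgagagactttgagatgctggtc
Barx1, chr13:48662786-48663035, plus strand: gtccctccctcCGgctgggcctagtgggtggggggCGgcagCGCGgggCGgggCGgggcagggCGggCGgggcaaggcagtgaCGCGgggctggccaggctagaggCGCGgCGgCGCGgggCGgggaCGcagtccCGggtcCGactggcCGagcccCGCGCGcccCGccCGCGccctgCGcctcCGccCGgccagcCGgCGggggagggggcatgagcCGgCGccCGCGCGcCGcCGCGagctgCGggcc
Runx1, chr16:92826075-92826324, minus strand: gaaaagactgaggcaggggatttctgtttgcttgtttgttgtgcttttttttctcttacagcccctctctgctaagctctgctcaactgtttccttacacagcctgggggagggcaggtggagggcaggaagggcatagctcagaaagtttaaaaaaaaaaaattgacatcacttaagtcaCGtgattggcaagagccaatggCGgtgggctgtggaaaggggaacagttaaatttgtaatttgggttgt
Wnt11, chr7:98834862-98835111, plus strand: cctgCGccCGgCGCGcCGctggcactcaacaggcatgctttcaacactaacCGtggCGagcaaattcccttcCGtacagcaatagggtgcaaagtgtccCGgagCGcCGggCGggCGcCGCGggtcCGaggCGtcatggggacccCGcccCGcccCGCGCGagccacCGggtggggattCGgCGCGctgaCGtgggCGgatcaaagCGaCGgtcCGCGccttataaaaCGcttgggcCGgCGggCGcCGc
Hoxd10, chr2:74691641-74691890, plus strand: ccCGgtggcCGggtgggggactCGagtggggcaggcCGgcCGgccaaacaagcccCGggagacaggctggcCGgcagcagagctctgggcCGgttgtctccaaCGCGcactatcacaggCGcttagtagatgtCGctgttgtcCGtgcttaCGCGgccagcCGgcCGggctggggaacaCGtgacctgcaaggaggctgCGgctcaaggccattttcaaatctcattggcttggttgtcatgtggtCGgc
The Vip stretch holds 3 CpGs and the Runx1 stretch 2, against 40 in Barx1, 37 in Wnt11 and 20 in Hoxd10. CpG-poor and CpG-rich promoters thus occurred in each direction among these picked genes. They were not equally common in each direction, as the shares over all such genes below show.

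Before the results, 2 features of the libraries bear on every count. Per the file headers, the 20% and 4% libraries of replicate 1 were sequenced on different flow cells, so oxygen and flow cell cannot be told apart within that replicate, whereas both libraries of replicate 2 shared 1 flow cell and lane. The 4% library of replicate 1 also stood apart on chromosome X. Its islands covered 23.5 Mb of that chromosome, against 12.7 and 10.4 Mb in the 20% libraries and 8.64 Mb in the other 4% library, and 6.06% of its island reads lay there against 3.4% and 2.16% at 20% oxygen and 1.97% in the other 4% library. H3K36me3, profiled at the same oxygen levels, had 1.92% to 2.21% of its island reads on chromosome X in all 4 of its libraries. Leaving chromosome X out is given beside the counts it touches. The labelled cell type was checked against noradrenergic neuroblast genes: the regulator Hand2 had no H3K27me3 within 5 kb in any library and had H3K4me3 over 1932 to 2000 of the 2000 bp around its start. Nos1, the gene behind the NOS1+ label, had no H3K27me3 within 5 kb and no H3K4me3 at its annotated start in any library, and H3K36me3 covered 95.8% to 100% of its body.

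Reads were sparser per kb of island at 4% oxygen in both replicates, while island number, width and covered length moved in opposite directions. Islands held 28.6 and 33.2 reads per kb at 20% oxygen (replicates 1 and 2) and 23.5 and 28.3 at 4%. The 4% level was thus 0.821 times the 20% level in replicate 1 and 0.852 times in replicate 2, although the higher 4% value (28.3) lay just under the lower 20% value (28.6). The means were 30.9 ± 3.21 and 25.9 ± 3.36 reads per kb (SD, n = 2 each; exact permutation test over libraries, two-sided p = 0.3333, the smallest that 2 against 2 can give). These values are not scaled for depth, which is unknown. Reads inside islands, the numerator of this measure, totalled 8920100 and 12228541 at 20% oxygen and 8479517 and 9996027 at 4%, and the part of sequencing depth in the result was not tested.

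Covered length was 311.6 and 368.7 Mb at 20% oxygen against 360.6 and 353.7 Mb at 4%, or 1.16 times the 20% length in replicate 1 and 0.959 times in replicate 2. Median island width was 4600 and 8400 bp at 20% oxygen against 8000 and 7000 bp at 4%. The 20% library of replicate 1 was the outlying one, with 34471 islands against 22718 to 27360 in the others. It also held 4013 islands under 2 kb, 11.6% of its list, against 127 to 210 in the other libraries. Islands of 50 kb or more numbered 746 and 1344 at 20% oxygen and 1126 and 1008 at 4%. For islands, covered length and both widths the exact permutation p was 1, and neither direction held in both replicates.

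**Figure D1:**
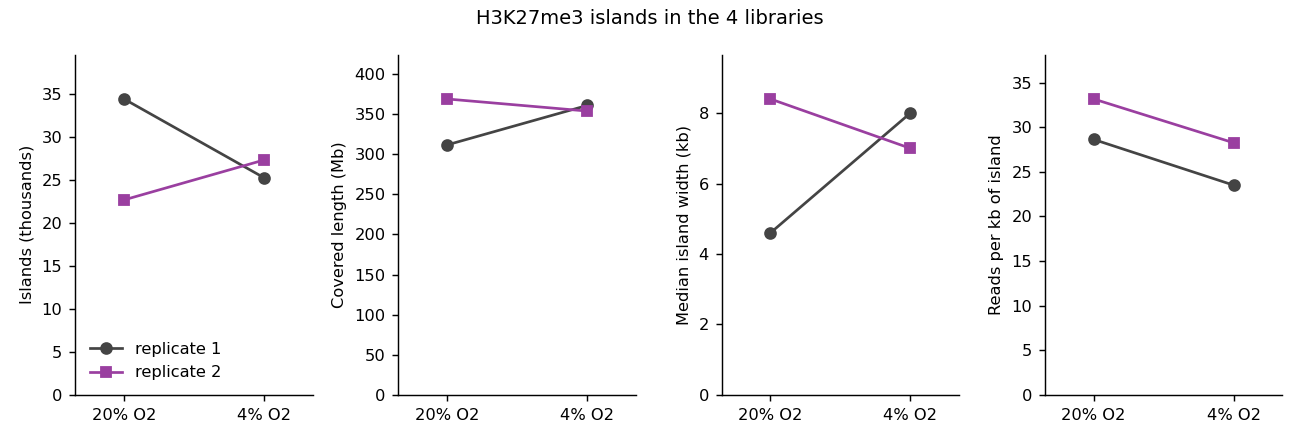
Island number, covered length, median island width and reads per kb of island (y axes) at 20% and 4% oxygen (x axes), with 1 point per library and a line joining the libraries of a replicate. The lines cross for number, covered length and width, and run down together for reads per kb, from 28.6 to 23.5 and from 33.2 to 28.3.

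Wide domains found in all 4 libraries were split into different numbers of islands. Islands of the 4 libraries were merged where they overlapped or touched, which gave 26031 regions over 478.1 Mb, of which 10177 had an island in every library. In the 2047 of these that spanned 50 kb or more, islands per region averaged 5.07 and 2.44 at 20% oxygen and 3.32 and 3.65 at 4%. The share of those regions covered was nevertheless 85.3% and 93.2% at 20% oxygen and 90.8% and 90.1% at 4%. A width by itself therefore depended on how a library's domains were split.

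Libraries shared more of their covered length within a replicate than within an oxygen level. Within a replicate, the 20% and 4% libraries shared 0.710 (replicate 1) and 0.713 (replicate 2) of their combined covered length. Libraries of the same oxygen level shared 0.675 at 20% and 0.654 at 4%. All 4 libraries covered 232.7 Mb, or 48.7% of the combined 478.1 Mb. Both 4% libraries and neither 20% library covered 11.5 Mb (2.41%), and the reverse held for 8.21 Mb (1.72%).

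By chromosome, replicate 1 covered more at 4% oxygen on every autosome and on X, with ratios of 1.04 to 1.21 on the autosomes. In replicate 2 the ratio was above 1 on chromosomes 1, 2, 6, 10 and 15 and below 1 on the others. No library had an island on chromosome Y.

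**Figure D2:**
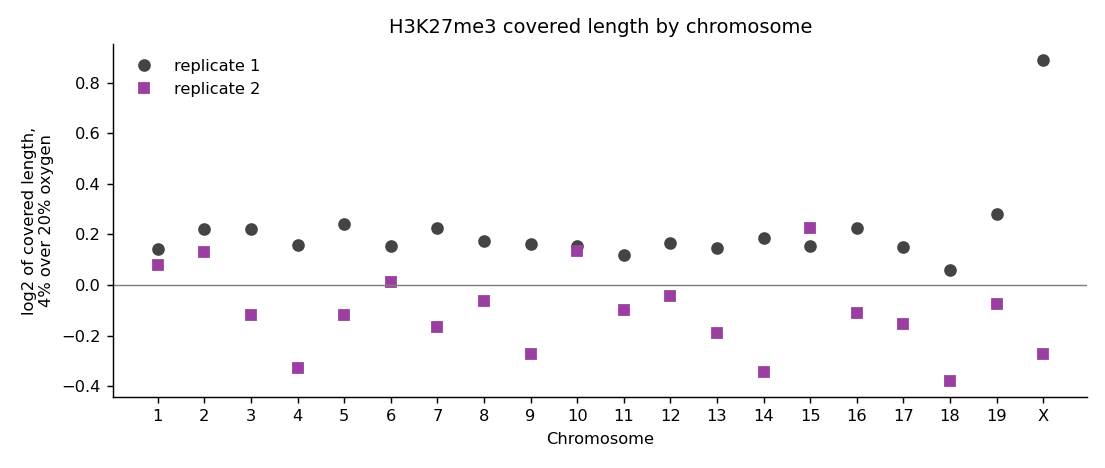
Covered length at 4% over 20% oxygen on a log2 scale (y axis) for each chromosome with islands (x axis), in replicate 1 (circles) and replicate 2 (squares). Chromosome X stands above the autosomes in replicate 1, where 23.5 Mb was covered at 4% oxygen against 12.7 Mb at 20%, and below 0 in replicate 2.

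Regions with an island in both 4% libraries and neither 20% library, called 4%-only, numbered 500, or 1.92% of regions, and 20%-only regions numbered 761, or 2.92%. They were small beside the regions of all 4 libraries: the median width was 6800 bp for 4%-only, 5600 bp for 20%-only and 21200 bp for all 4. They were also sparse, with a median of 15.6 and 21.1 reads per kb for the 4%-only islands in the 4% libraries, whose lists had medians of 17.9 and 22.3. Chromosome X held 26 of the 4%-only regions and 3 of the 20%-only ones, and without it the counts were 474 and 758. The balance between the directions depended on the definition. It turned, to 904 and 653, when a region counted as present only where at least 50% of it was covered. Requiring at least 20 reads per kb of an island kept the direction, at 118 and 1531. That cut is not scaled for depth. Over all islands the medians were 21.7 and 24.7 reads per kb at 20% oxygen and 17.9 and 22.3 at 4%. With equal island numbers per library the counts were 561 and 536. Leaving out the 20% library of replicate 1 or 2 gave 1391 and 2644 or 1097 and 3150, and leaving out the 4% library of replicate 1 or 2 gave 3276 and 2024 or 2659 and 1753. These counts rise by construction, since a region then has to meet fewer conditions.

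The widest 4%-only region overlapping a gene lay in Adcy8, a brain adenylyl cyclase (chr15:64726201-64758600), where islands covered 30800 bp with 721 reads and 30000 bp with 804 reads in the 4% libraries. The others named by width were in Malrd1, in Pcdh15, a cadherin of sensory hair cells, over the vomeronasal receptor gene Vmn1r235, and at intergenic sites on chromosome 2 (chr2:171293601-171329200 and chr2:17169001-17196000). In the 4% library of replicate 1 the islands in these 5 were narrower, from 2600 bp at Vmn1r235 to 10400 bp in Malrd1, against 15200 to 31400 bp in replicate 2.

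The widest 20%-only region lay inside Akap6, which anchors protein kinase A (chr12:52962801-53000400), with 17600 bp and 379 reads in replicate 1 and 37600 bp and 902 reads in replicate 2. The next in width lay 26130 bp from Slc16a10, an aromatic amino acid transporter gene (chr10:40168401-40196000), and 43961 bp from Zfp536 (chr7:37818001-37842600). Tspan9, Kank1 and Dtna held the remaining ones. Replicate 1 islands were again the narrower, at 2200 to 13400 bp in these 5 against 16200 to 25800 bp.

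At gene starts, more protein-coding genes carried the mark only at 4% oxygen than only at 20%. A gene counted as marked where islands covered at least 200 bp of the 2000 bp centred on an annotated start. For the 4395 of 21887 genes whose start was not given in the sources used here, either end of the record was used. With several starts or ends, the window with the most coverage was taken, separately for each mark and library. Marked genes numbered 3076 and 3298 at 20% oxygen and 3774 and 3391 at 4%, so both 4% libraries stood above both 20% libraries; the nearest were 3391 and 3298. There were 2425 genes marked in all 4 libraries and 17375 in none. The 4%-only genes numbered 188, or 0.859% of all genes, and the 20%-only genes 56, or 0.256%. Without chromosome X these were 182 and 55, and with equal island numbers 183 and 33. Leaving out 1 library gave 312 to 635 genes for 4%-only and 128 to 222 for 20%-only, with the 4%-only count the larger each time, and with fewer conditions to meet. No test was made gene by gene, since an exact test of 2 against 2 libraries cannot go below p = 0.3333.

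Most 4%-only starts lay in regions that had islands at both oxygen levels and were filled only in part. The smaller of each gene's 4% values had a median of 502 bp of the 2000 bp window, 141 of the 188 windows were filled by less than 1000 bp, and 24 were filled completely. Of the 188 starts, 121 lay in regions with islands in all 4 libraries, 32 in 4%-only regions and 35 in other regions. Among the 56 20%-only starts, 14 windows were filled completely and 25 by less than 1000 bp, and 21 starts lay in 20%-only regions.

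Among the genes marked at their start only at 4% oxygen, a share near that of all genes had H3K4me3 at a start. This held at both oxygen levels. Each mark was read in the window where it covered most, so in genes with several windows the marks need not share one. H3K4me3 covered at least 200 bp of the window at 60.1% and 59.6% of the 188 genes in the 20% libraries and at 58.5% and 59.6% in the 4% libraries. For the 20%-only genes these shares were 7.14% and 8.93% at either oxygen level, for genes marked in all 4 libraries 13.9% to 16.9%, and for all genes 54.2% to 54.8%. H3K27ac was present at 35.1% to 42.6% of the 4%-only starts and at 0% to 1.79% of the 20%-only starts, beside 46.2% to 49.4% of all genes and 5.11% to 6.80% of genes marked in all 4 libraries. Genes marked in no library had H3K4me3 at 62.0% to 62.3% of their starts and H3K27ac at 55.2% to 58.1%. When the 4%-only genes were divided after these values were seen, the 141 with under 1000 bp had H3K4me3 at 74.5% to 75.9% of their starts and the 47 with at least 1000 bp at 10.6% to 12.8%. The shares were alike at 20% and 4% oxygen in each group, as shown in the plot of other marks by class. The split was not particular to 4%-only genes. Among genes marked in all 4 libraries, H3K4me3 was at 40.1% to 43.0% of the 446 with under 1000 bp and 8.03% to 11.2% of the 1979 others. Among 20%-only genes it was at 12% of 25 and 3.23% to 6.45% of 31.

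**Figure D3:**
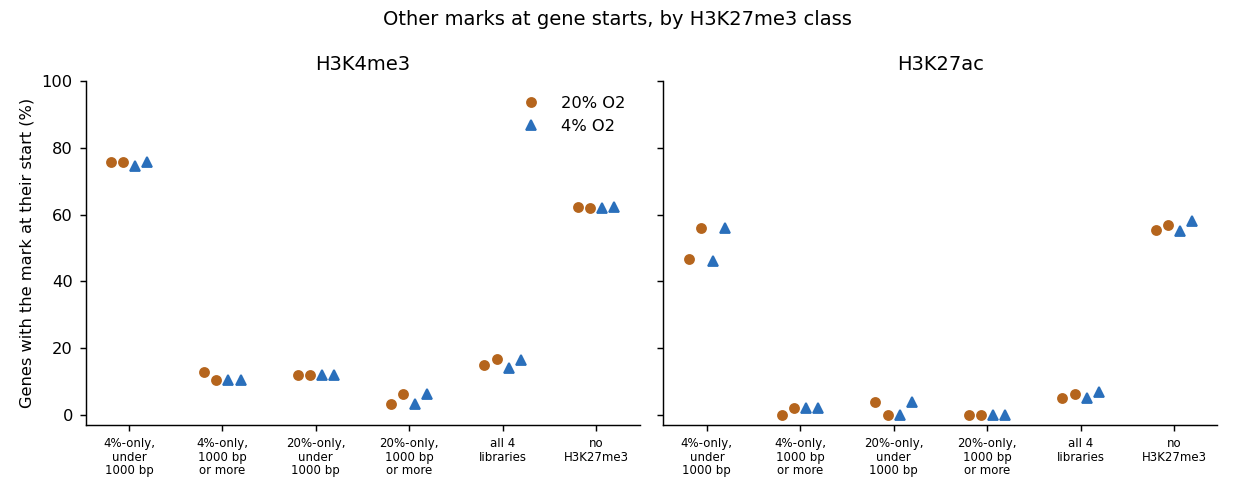
Percent of genes with H3K4me3 (left) or H3K27ac (right) over at least 200 bp of the start window (y axes), by H3K27me3 class and by how much of the window H3K27me3 filled (x axes), with 1 point per library (circles 20%, triangles 4% oxygen). The 141 4%-only genes with under 1000 bp sit at 74.5% to 75.9% for H3K4me3, and the 47 with more sit at 10.6% to 12.8%.

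CpG content also differed between the classes. A CpG observed-to-expected ratio of at least 0.6 over the 250 bases before and 50 after the start was found for 73 of the 150 4%-only genes with a sequence (48.7%) and for 5 of 46 20%-only genes (10.9%). The share was 19.3% for genes marked in all 4 libraries, 52.0% for unmarked genes and 47.4% for all genes. The letters ACGTG or GCGTG, the core of hypoxia response elements, occurred on either strand in 50.7% of the 4%-only, 28.3% of the 20%-only and 48.6% of all such promoters. These shares are descriptions, and both motifs contain a CpG.

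Of genes whose start window was filled in both libraries of 1 oxygen level and not marked at the other, some are named here after their values were seen. Pon1, a serum paraoxonase, had 0 bp in both 20% libraries and 9200 and 6000 bp at 4% within its record and 5 kb on each side. Ifnl3, an interferon lambda, had 0 bp at 20% oxygen against 6968 and 7600 bp at 4%. In the other direction, Ccl2, a monocyte-attracting chemokine, had 4852 and 11876 bp at 20% oxygen against 0 bp in both 4% libraries. No start was given for Ccl2, so its filled window lay at an end of its record. Ffar2, a short-chain fatty acid receptor, had 7400 and 7800 bp at 20% against 0 bp at 4%. These genes had no overlap between the oxygen levels.

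Vip, which encodes vasoactive intestinal peptide, was the 4%-only neuropeptide gene with a filled window: 0 bp of the 2000 bp at its start in both 20% libraries and 2000 bp in both 4% libraries. Around it (chr10:5634193-5652617), the mark covered 1408 and 2017 bp at 20% oxygen against 17625 and 7025 bp at 4%. Both 4% values were higher than both 20% values but differed from each other more than the 20% values did. Its start carried no H3K4me3 or H3K27ac in any library, and its promoter is the CpG-poor stretch printed above. Galr1, a galanin receptor, was the other 4%-only member of 54 neuropeptide and receptor genes, beside 0.859% of all genes. It had 495 and 695 bp of the windows at the ends of its record at 4% oxygen. Around Galr1 the libraries overlapped, at 2200 and 11177 bp at 20% against 5200 and 7600 bp at 4%. In the same list 10 genes were marked in all 4 libraries, among them Pdyn, Cck and Calca, and 37 in none.

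Covered length over gene records with 5 kb on each side separated completely by oxygen for some genes. It was higher at 4% for 1429 (6.53% of 21887) and lower for 382 (1.75%). Only 6884 genes had any covered length there, and the others could not separate. The largest separations upward were in long genes that held part of a domain at both levels. Ccdc148 (chr2:58821697-59160828) had 117504 and 112904 bp at 20% oxygen against 173304 and 188904 bp at 4%. Dnah8, an axonemal dynein heavy chain, had 107200 and 93800 bp at 20% against 154666 and 167800 bp at 4%. Neither had the mark at its start in any library, so the added length lay away from the start.

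Rspo2, a secreted amplifier of Wnt signalling, had 67600 and 59000 bp at 20% oxygen against 108200 and 108000 bp at 4%. Trhr, the receptor for thyrotropin-releasing hormone, was covered almost whole at 4% oxygen, with 47389 and 49189 of 49989 bp against 18077 and 10077 bp at 20%. St8sia6, Pde1a and Pcdh15 were also named for the size of their separation, with 4% values of 123934 to 127917, 193748 to 197148 and 161231 to 255555 bp against 50534 to 87134, 121400 to 156000 and 111031 to 130155 bp at 20%.

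Downward, Akap6 (chr12:52698588-53155568) stood first. With 5 kb on each side it had 245600 and 226413 bp at 20% oxygen against 78800 and 52200 bp at 4%, or 52.6% and 48.5% of the interval against 16.9% and 11.2%. Its start carried H3K4me3 over all 2000 bp in every library, and H3K27me3 reached the start in 1 library only, the 20% library of replicate 2. H3K36me3 covered 3.55% and 20.0% of its body at 20% oxygen and 9.19% and 35.5% at 4%, higher at 4% in each replicate but with overlapping ranges.

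Runx1, a transcription factor of blood stem cells and of mesenchymal-type neuroblastoma (chr16:92601466-92826074), was the 20%-only member of the 27 mesenchymal genes. It had 108409 and 141609 bp at 20% oxygen against 52800 and 38535 bp at 4%. The window at its start held 673 and 2000 bp at 20% against 0 bp in both 4% libraries, and no library had H3K4me3 there. Reads per kb of the remaining islands were 19.4 and 23.4 at 20% oxygen and 14.7 and 20.5 at 4%, so what changed most was the length covered. Among the other mesenchymal genes 5 were marked in all 4 libraries, including Prrx1 and Cd44, and 18 in none. Of all genes, 0.256% were 20%-only.

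**Figure D4:**
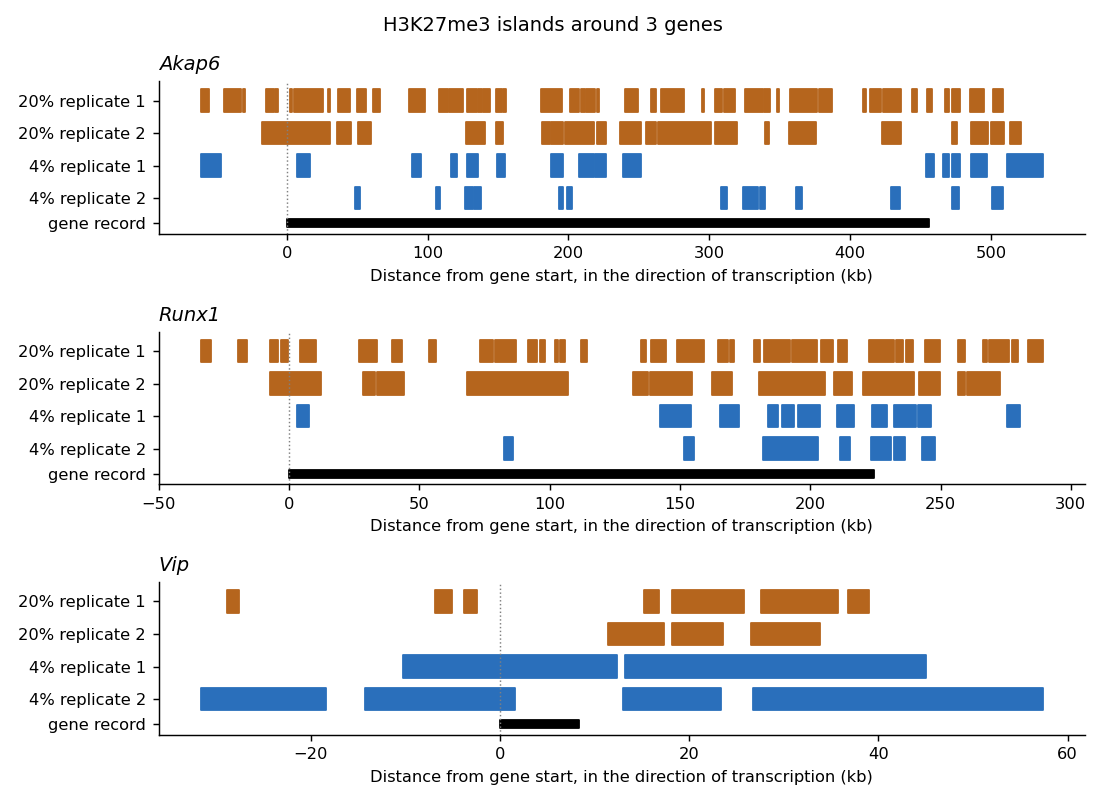
Islands (bars) in the 4 libraries around Akap6, Runx1 and Vip against the distance from the gene start in kb, in the direction of transcription (x axes), with the gene record in black. Akap6 and Runx1 carry 245600 and 226413 bp, and 108409 and 141609 bp, in the 20% libraries and less in both 4% libraries, and at Vip the start is covered in the 4% libraries only.

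Slc16a10 had 61069 and 81469 bp at 20% oxygen against 17869 and 24000 bp at 4%. Pakap, a kinase A anchor gene (chr4:57434475-57896984), had 120910 and 259510 bp at 20% against 80910 and 47310 bp at 4%, and its start window was full at 20% oxygen and empty at 4%. Nav2, Csmd2, Ccbe1 and Dtna were the remaining genes named for a lower length. For Nav2 the 20% libraries were far apart, at 208428 and 451628 bp, against 155828 and 174628 bp at 4%. Csmd2 had 254800 and 368000 bp at 20% against 214000 and 120800 bp at 4%.

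Equal island numbers moved the difference of means at Runx1 from -79341.5 to -51704.5 bp. Galr1 had no stable direction: its difference of -288.5 bp became 4200 bp without the 20% library of replicate 2 and 911.5 bp without the 4% library of replicate 1.

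Gene bodies gave smaller counts in the same order. A body counted as covered where islands held at least 0.5 of it, and 83 genes were covered only at 4% oxygen (0.379% of 21887) and 36 only at 20% (0.164%). Covered bodies numbered 2422 and 2741 at 20% oxygen and 2857 and 2627 at 4%, so the oxygen levels overlapped. Without the 20% library of replicate 1 the order turned, to 136 and 205.

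Developmental regulators are classical Polycomb targets. Of 39 Hox genes, which pattern the body axis, 31 and 32 were marked at 20% oxygen and 28 and 31 at 4%, with 26 marked in all 4 libraries. Hoxa4 was the 20%-only member, at 319 and 1719 bp of a window at an end of its record, as no start was given. No Hox gene was 4%-only. Of all genes, 0.256% were 20%-only and 0.859% 4%-only. The Hoxa cluster was covered over 72234 and 96634 bp at 20% oxygen against 62634 and 75034 bp at 4%, lower at 4% in each replicate but with overlapping values. The Hoxd cluster went from 71342 and 81318 bp to 79542 and 83742 bp, and the Hoxc cluster held 44200 to 45470 bp in every library. The Hoxb cluster held 164339 and 165939 bp at 20% against 162539 and 142885 bp at 4%.

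Of 105 other developmental transcription factors, 24 were marked in all 4 libraries and 68 in none. Barx1, a homeobox factor, and Bhlhe22, a neuronal basic helix-loop-helix factor, were 4%-only, beside 0.859% of all genes. In both 4% libraries Barx1 had 365 bp and Bhlhe22 276 bp. No start was given for Bhlhe22, so its window lay at an end of its record. Around Barx1 the 20% libraries already had 0 and 7672 bp against 8472 and 8872 bp at 4%, so the difference in replicate 2 was small. Pax6 and Gata4 had no H3K27me3 within 5 kb in any library. At the Gata4 start H3K4me3 covered 211 to 837 bp in every library, while the Pax6 start had none.

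Of 44 signalling ligands and their antagonists, 10 had more covered length in both 4% libraries than in both 20% libraries, and 3 had less. Over all genes these shares were 6.53% and 1.75%, but only 6884 of 21887 genes had any covered length. The list was not compared with covered genes alone. At starts, 15 were marked in all 4 libraries and 21 in none. Wnt6 had 10122 and 10522 bp at 20% oxygen against 29722 and 28722 bp at 4%, and 18.1% and 17.8% of its body was covered at 20% against 79.8% and 76.8% at 4%. Its start was marked in all 4 libraries, and it was named after its values were seen. Wnt16 was 4%-only at its start, with 574 and 374 bp, and Wnt11 was 20%-only, with 689 and 889 bp. Of all genes, 0.859% were 4%-only and 0.256% 20%-only. H3K4me3 covered 1721 to 1875 bp across the 4 libraries at the Wnt11 start where it covered most, and none of the Wnt16 window. Wnt11 has 2 annotated starts, so the marks need not share a window. Around Wnt11 no H3K27me3 was left at 4%, from 1400 and 1600 bp at 20%.

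Of 45 genes of the hypoxia response, 40 starts had no mark in any library, where 79.4% of all genes had none. Of the 45, none was 4%-only or 20%-only, beside 0.859% and 0.256% of all genes. Pdk3, a pyruvate dehydrogenase kinase on chromosome X, was marked in all 4. Adm, which encodes adrenomedullin, had 0 bp within 5 kb in every library. Epo, which encodes erythropoietin, had none at its start and 3181 and 2781 bp nearby at 20% oxygen and 3381 and 2581 bp at 4%, at the edge of a wide island of 83600 to 101400 bp. Glycolysis genes were unmarked in 24 of 25 cases, with Ldhb marked in all 4 libraries. Of 21 nitric oxide pathway genes 19 were unmarked, and Nos2, the inducible synthase, was marked in every library.

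Of 34 Polycomb and H3K27 demethylase genes 29 were unmarked at the start, a share near the 79.4% of all genes, and Phf19 was marked in all 4 libraries. Ezh2, Kdm6a and Kdm6b had 0 bp within 5 kb in every library. Marked members numbered 1 and 2 at 20% oxygen and 5 and 1 at 4%, and the 5 belong to the library that stood apart on chromosome X, where Rbbp7, 1 of them, lies.

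Some genes of other cell lineages carried the mark at both oxygen levels. Markers marked in all 4 libraries were 6 of 17 for immune cells and 5 of 19 for liver and muscle. For epithelium they were 6 of 12, for glia 4 of 14 and for endothelium 0 of 12. Of all genes, 11.1% were marked in all 4. None of these lists had a 4%-only or 20%-only start, beside 0.859% and 0.256% of all genes. Ptprc, which encodes the leukocyte antigen CD45, had 68600 and 84342 bp at 20% oxygen against 101742 and 98098 bp at 4%. Alb, which encodes albumin, had 21731 and 24533 bp at 20% against 21133 and 19933 bp at 4%. Of 28 noradrenergic genes 26 were unmarked, including Th and Dbh of catecholamine synthesis, and Slc6a2, the noradrenaline transporter gene, was among those marked in all 4. None of 20 housekeeping genes was marked in any library.

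The gene families are read beside shares of all genes of 0.859% for 4%-only and 0.256% for 20%-only. For covered length the shares were 6.53% for more at 4% and 1.75% for less, over all genes, covered or not. Of the families, 6 of 1110 olfactory receptor genes were 4%-only and 5 were 20%-only, and 4 of 355 vomeronasal receptor genes were 4%-only and 1 was 20%-only. Of 400 genes named Zfp, which encode zinc finger proteins, 7 were 4%-only and 1 was 20%-only, and 39 had more covered length in both 4% libraries against 5 with less. Of 106 cytochrome P450 genes 3 were 4%-only and none 20%-only.

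A microRNA cluster on chromosome 11 was found among 1005 hairpins after the values were seen. Of these, 76 lay inside islands in all 4 libraries, 5 only in the 4% libraries and 2 only in the 20% libraries. Of the 5, Mir216a, Mir216b and Mir217 lie side by side, and Mir759 lies on chromosome 14. Mir216c lies within Mir216b on the other strand, so these hairpins are not separate sites. The mature sequences of 3 of them are shown with bases 2 to 8, the seed that pairs with targets, in capitals, because miR-216a and miR-216b share most of a seed.
mmu-miR-216b-5p: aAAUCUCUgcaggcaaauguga
mmu-miR-216a-5p: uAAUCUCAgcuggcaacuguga
mmu-miR-217-5p: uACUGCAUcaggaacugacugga
Over the cluster with 10 kb on each side (chr11:28736191-28773835), the mark covered 2000 and 6835 bp at 20% oxygen against 25000 and 26435 bp at 4%. The groups did not overlap, and the islands at 4% held 14.8 and 22.8 reads per kb, against medians of 17.9 and 22.3 over the islands of those libraries. RefSeq gave the sequences.

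Read counts were then compared where coverage was the same. In 1127 regions of at least 2 kb of which every library covered at least 0.9, no region passed edgeR's quasi-likelihood test at a Benjamini-Hochberg adjusted p of 0.05. The smallest adjusted p was 0.207, and unadjusted p-values under 0.05 numbered 99 higher (8.78%) and 69 lower (6.12%) at 4% oxygen. DESeq2 called 14 higher (1.24%) and 0 lower, with 76 (6.74%) and 49 (4.35%) at an unadjusted p under 0.05. Leaving out the 20% library of replicate 1 let edgeR call 16 higher and 4 lower, leaving out that of replicate 2 let it call 7 higher and 0 lower, and leaving out either 4% library gave 0. In the 10177 regions of all 4 libraries, with covered length as an offset, edgeR called 0 regions, and 675 higher (6.63%) and 286 lower (2.81%) had an unadjusted p under 0.05. DESeq2 called 0, and 355 higher (3.49%) and 112 lower (1.1%) had such a p. There, leaving out the 4% library of replicate 1 or 2 gave 35 or 108 higher and 1 lower.

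The ratios of 4% to 20% oxygen in the 2 replicates, which share no library, ran together over these regions. Over the 1112 of them with at least 100 reads in every library, the log2 ratios of CPM (island reads of a region scaled to the library's total, times 1e6) had a Pearson r of 0.76 and a Spearman rho of 0.76 between replicates, and without chromosome X these were 0.79 and 0.77 over 1088 regions. This is a correlation across regions, which are not independent replicates. It is given as a description, and base composition, mappability or a library property that both replicates had in common was not tested. The ratios were small: none reached 1.5-fold in both replicates, and their range was -0.75 to 0.57 in replicate 1 and -0.65 to 0.73 in replicate 2, on the log2 scale. Both ratios were above 0 for 234 regions, below 0 for 599 and opposite for 279. The medians were -0.15 and -0.03, so the counts of each direction depend on where 0 is set.

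**Figure D5:**
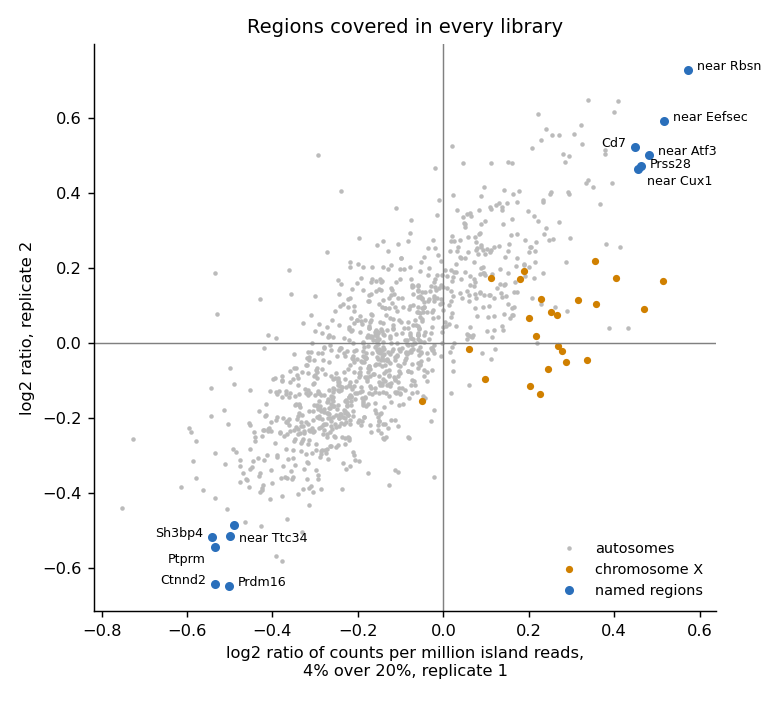
Log2 ratio of CPM of island reads at 4% over 20% oxygen in replicate 1 (x axis) and replicate 2 (y axis) for the 1112 regions covered in every library, with 1 point per region. The cloud runs along the diagonal (Pearson r = 0.76), chromosome X lies to its right, and the 12 named regions sit at the ends.

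The regions that were higher in both replicates were narrower than those lower in both and lay closer to active chromatin. Their median width was 37700 bp against 79400 bp. A protein-coding gene overlapped 55.1% of the 234 and 73.3% of the 599. In the 5 kb beyond each end of the region, H3K4me3 was present at 42.7% to 48.3% of the 234 across the 4 libraries of that mark and at 20.4% to 22.5% of the 599. H3K36me3 was present there at 25.6% to 31.6% and 10.9% to 13.7%, and H3K27ac at 36.3% to 43.2% and 14.2% to 17.0%. These shares were alike at 20% and 4% oxygen, and they describe regions grouped by the ratios themselves.

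Of the 6 regions named for the highest ratios, 4 lay just beside a gene. The first (chr6:92215201-92235200) ended 306 bp from Rbsn, an endosomal trafficking gene. It held 56.6 and 55.0 CPM at 20% oxygen and 84.2 and 91.1 at 4%, a log2 difference of 0.74 ± 0.11 (SE; edgeR adjusted p = 0.207, DESeq2 adjusted p = 0.00242). The second (chr6:88446801-88464600) lay 248 bp from Eefsec, the selenocysteine elongation factor gene, with 57.1 and 61.0 CPM at 20% and 81.6 and 92.0 at 4%. The third (chr1:191183801-191221400) lay 467 bp from Atf3, a stress-induced transcription factor gene, with 165.7 and 182.2 at 20% and 231.4 and 258.3 at 4%. In each the 4% values lay above both 20% values, but these regions were picked for high ratios in both replicates.

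A region 1210 bp from Cux1 and regions over the mast cell protease genes Prss28, Prss29, Tpsb2 and Tpsg1 and over Cd7, Sectm1b and Sectm1a, genes of immune cells, were the others. The protease region (chr17:25307601-25372400) went from 234.9 and 260.1 CPM to 323.6 and 361.0. DESeq2 adjusted p-values of these 6 regions ran from 0.00242 to 0.0317, and edgeR adjusted p-values from 0.207 to 0.221. Without the 20% library of replicate 1, edgeR passed the regions near Rbsn and at Cd7 (adjusted p = 0.0166 each). Without that of replicate 2 it passed those near Rbsn, Eefsec and Atf3 and at the proteases (adjusted p = 0.00664 to 0.00732). With 1 library left at 20% oxygen, these fits assume that it varies like the 4% libraries.

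The largest region among those with lower ratios was 327200 bp over Prdm16, a transcription factor of brown fat and neural stem cells (chr4:154308001-154635200). It held 1229 and 1499 CPM at 20% oxygen and 867.5 and 957.2 at 4%, a log2 difference of -0.50 ± 0.15 (SE; edgeR adjusted p = 0.268, DESeq2 adjusted p = 0.120). Almost all of Prdm16 stayed covered, from 94.5% and 99.1% of it with 5 kb on each side at 20% to 94.1% and 96.5% at 4%. A second region on that chromosome (chr4:154724601-154830400), 6907 bp from Ttc34, went from 474.8 and 551.3 to 335.9 and 385.8 CPM.

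Ptprm, a receptor tyrosine phosphatase gene, held 2 of the 6 regions, which are neighbours and not independent. In the wider one (chr17:66692201-66734800) the CPM were 170.7 and 137.4 at 20% oxygen and 117.8 and 94.2 at 4%. Ctnnd2, which encodes the neuronal delta-catenin, and Sh3bp4 were the others. With all 4 libraries, none of these 6 passed DESeq2 or edgeR without a replicate term. For Prdm16, the region near Ttc34 and Sh3bp4 the size of the difference depended on which 20% library was kept. Without that of replicate 1 the log2 differences were -0.70, -0.60 and -0.63. Without that of replicate 2 they were -0.26, -0.23 and -0.23.

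The widest merged regions had islands at both oxygen levels, and the densest were picked for their reads per kb in all libraries. The widest region, 584000 bp over Chst1, Syt13 and Prdm11 (chr2:92485601-93069600), was covered over 552800 and 574400 bp at 20% oxygen against 567400 and 575000 bp at 4%. The next spanned 471000 bp over Tbcel and the kainate receptor gene Grik4, and 443800 bp in Camta1, and a further one held the keratin and keratin-associated genes of chromosome 11 over 442400 bp. The densest region lay at Apol7b (chr15:77436401-77451000), an apolipoprotein L gene, with 1144 and 1247 reads at 20% oxygen and 1044 and 1089 at 4%. The others lay at Tcf20, at Pvalb with Csf2rb, at Rhpn1 with Mafa, all on chromosome 15, and at a 600 bp site on chromosome 8.

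On chromosome X, 214 of 966 genes were marked at their start in the 4% library of replicate 1, against 128 and 95 in the 20% libraries and 77 in the other 4% library. Marked only in that 1 library were 77 genes, and 61 were marked in all 4. The number of 4%-only genes there was 6 and of 20%-only genes 1. The 24 fully covered X regions with at least 100 reads had higher ratios in both replicates in 14 cases and lower in both in 1. Over all 25 fully covered X regions the median log2 ratio was 0.24 in replicate 1 and 0.07 in replicate 2. Reads per kb of island, not scaled for depth, were 23.9 and 25.3 on X at 20% oxygen against 28.8 and 33.4 on the autosomes. At 4% they were 21.8 and 22.8 on X against 23.6 and 28.4 on the autosomes, with the smallest gap in the library that stood apart.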

How the data were processed

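BWA, Picard and SICER with mm10 are named in the submitters' processing notes, and their versions are not stated there. The H3K27me3 and H3K36me3 lists hold islands of single libraries with a deposited whole-number column, read here as read counts per island. For H3K4me3 and H3K27ac, the deposited MACS2 peaks carry a −log10 score, and only their intervals were used. Input libraries were not analysed here. Islands held 8479517 to 12228541 reads per library, and total sequencing depth is unknown. Replicate 2 lists deposited again under replicate 1 were used once.

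Islands were merged where they overlapped or touched. Gene records, promoters and microRNAs came from RefSeq for GRCm38.p6, the assembly of mm10, which gave a start for 17492 of 21887 protein-coding genes. Island reads per region were tested with edgeR 4.0.16 (R 4.3.3; TMM, quasi-likelihood, Benjamini-Hochberg over all regions tested, threshold 0.05), with DESeq2 1.42.0 as an alternative, and the fits were tested on simulated data. Library measures were compared by exact permutation tests. Other alternatives were the definition of presence, equal island numbers, no length offset, other scalings, leaving out each library and, chosen after seeing the data, leaving out chromosome X.

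The libraries, the 16 gene lists and the rule for named genes were chosen with earlier results of these data known. Named were, per direction, the 8 genes whose covered length with 5 kb on each side separated most by oxygen, up to 4 members per list marked at 1 oxygen level, the 6 fully covered regions with the largest log2 ratios in both replicates and the 6 widest regions of 1 oxygen level. Also named were the 5 widest and 5 densest regions and 17 genes regardless of change. Genes outside the rule are said to be named after their values were seen. Some genes that the rule or the lists hold are not reported here.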

Additional observations from a re-analysis of the deposited data

How the results depend on the processing

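Leaving out each library removes a condition from the counts of presence at 1 oxygen level, which rise by construction, and gave 312 to 635 4%-only and 128 to 222 20%-only gene starts, 136 to 351 and 56 to 205 gene bodies, and 1097 to 3276 and 1753 to 3150 regions. By equal island numbers, 20%-only starts were 33 and bodies 23. Bodies covered over a share of 0.9 were 55 at 4% only. 4%-only regions were 904 at 50% coverage and 289 with islands up to 5000 bp apart merged (401 20%-only). With at least 20 reads per kb, a cut not scaled for depth, they were 118 (1531 20%-only). Fitting the replicate number as a block, edgeR called 795 regions higher and 347 lower in read density, and 244 higher and 233 lower among fully covered regions. In the latter all 12 named regions passed, but they were picked for large ratios in both replicates, which such a fit favours, so this adds no support. Same-numbered libraries deviated together (correlation 0.43 over 10177 regions and 0.75 over 1127), but with 2 pairs this is a hint from the data, not the design. Without the length offset, the block gave 0 calls, and the cause was not tested. In fully covered regions DESeq2 called 14 higher. Leaving out a library gave 0 to 108 higher and 0 to 1 lower calls in density, and 0 to 16 higher and 0 to 4 lower among fully covered regions. The 12 named regions kept their direction under every alternative run, as did the 25 named genes whose libraries separated by oxygen, while Galr1 did not. The regions were picked for their ratios in both replicates, so their kept direction adds no support. For the 25 genes, leaving out a library cannot turn the sign once the libraries separate, so only equal island numbers could have done so. The ratios of library totals moved by less than the spread between libraries. The lists hold called islands only, so reads outside them limit what can be said of absent marks, and thinner libraries may miss weak islands.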
